A study of Homo sapiens with 28 samples.

Results

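The insulin-like growth factor (IGF) system is described by 10 genes out of 35488 in the deposited table: the ligands IGF1 and IGF2, the receptors IGF1R and IGF2R, and the binding proteins IGFBP2 to IGFBP7. They were taken by symbol, each symbol had 1 row, and all 10 reached the mean normalised count of 10 that the tests required, IGFBP3 through 1 library alone. The cells were SK-N-MC, an established Ewing sarcoma cell line; such tumours of bone or soft tissue are driven by the fusion transcription factor EWS-FLI1. Every culture carried a doxycycline-inducible short hairpin RNA and received 100 ng/ml doxycycline, the controls included. The groups were shFLI1, a single hairpin that targets the FLI1 part of the fusion, for 24 h (3 libraries) and 48 h (3), shCHD4#1 for 24 h (3) and 48 h (3), shCHD4#2 for 24 h (3) and 48 h (3), and shScramble, the control hairpin, for 24 h (5) and 48 h (5). CHD4 is the chromatin-remodelling ATPase of the NuRD complex. IGF2 reached the mean of 10 through the 48 h libraries of the CHD4 hairpins, where it was highest.

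IGF1 and IGF2 are secreted growth factors that activate the receptor tyrosine kinase IGF1R, which signals through the adaptors IRS1 and IRS2 to PI3K and AKT. IGF2R, the cation-independent mannose-6-phosphate receptor, takes up IGF2 for degradation. IGFBP2 to IGFBP6 bind the ligands outside the cell with high affinity, carry them or hold them from the receptor, and can be cut by proteases, while IGFBP7 binds IGFs weakly and is deposited in the extracellular matrix. Autocrine IGF1 signalling is a known feature of Ewing sarcoma, and IGFBP3 is known as a gene that EWS-FLI1 represses in such cells.

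The 28 libraries of stranded total RNA held 46102707 to 64775442 reads. CHD4 averaged 2990 and 3075 normalised counts with shCHD4#1 and shCHD4#2 at 24 h, against 11550.1 with shScramble, and 3189 and 2749.9 at 48 h, against 11605 with shScramble. One label field of the 48 h shScramble samples names a CHD4 knockdown, against their titles and that level. FLI1 averaged 1856 with shFLI1 at 24 h, against 4153 with shScramble, and 1669 at 48 h, against 3783. With shCHD4#2 at 48 h FLI1 was lower too, at 2974 against 3783 with shScramble (log2 -0.34, SE 0.12, limma adjusted p = 0.0291). All 9 Ewing sarcoma markers looked for were detected, and their summed level was 14042 to 14510.2 with shFLI1 at 48 h and 27521 to 38023 with shCHD4#2 at 48 h, against 50072 to 68496 with shScramble at 48 h. Of 8 markers of other cell types 5 were in the table, at a summed level of 223 to 426 with shFLI1 and 76.9 to 156 with shScramble. With shCHD4#1 at 48 h that level was 184 to 215, against 85.7 to 156 with shScramble at 48 h. At 48 h mitochondrial ribosomal RNA made up 22.1 to 22.5% in shFLI1 libraries and 16.2 to 18.0% in shScramble libraries. The shScramble and CHD4 hairpin libraries numbered 1 and 2, 12 in all and called the first kind here, held 0.313 to 0.388% of reads in processed pseudogenes, and the other 16, all shFLI1 libraries among them, held 0.223 to 0.283%. The part of these differences in the results was not tested, apart from the fits within each library kind.

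The library labelled shFLI1 at 48 h, replicate 3, stood apart from the other 27. In it 96 genes reached at least 20 normalised counts while they were at 2 or fewer in each other library, and 1 gene in all showed that pattern for any other library. Markers of kidney epithelium, a list chosen after these values were seen, were among its high genes: CDH16, a kidney cadherin, was at 314 against at most 1.101 in the other 27 libraries, and TRPV5, a renal calcium channel, was at 168 against at most 1.95. Of 15 such markers 14 were in the table and 7 were highest of all libraries there, while SLC22A6, a proximal tubule anion transporter, was at 0. AQP1 and CUBN, also on the list, were lower in replicate 3 (139 and 135) than in replicates 1 and 2 (240 to 422 and 162 to 175). The summed level of the markers was 1937 in that library, 449 to 789 in the other shFLI1 libraries and 133 to 255 with the other hairpins. The part of these transcripts in other values of that library was not tested. The 48 h shFLI1 calls of the members and of H19 against shScramble are also given without it, and those of the other lists and comparisons by which calls ended.

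**Figure D1:**
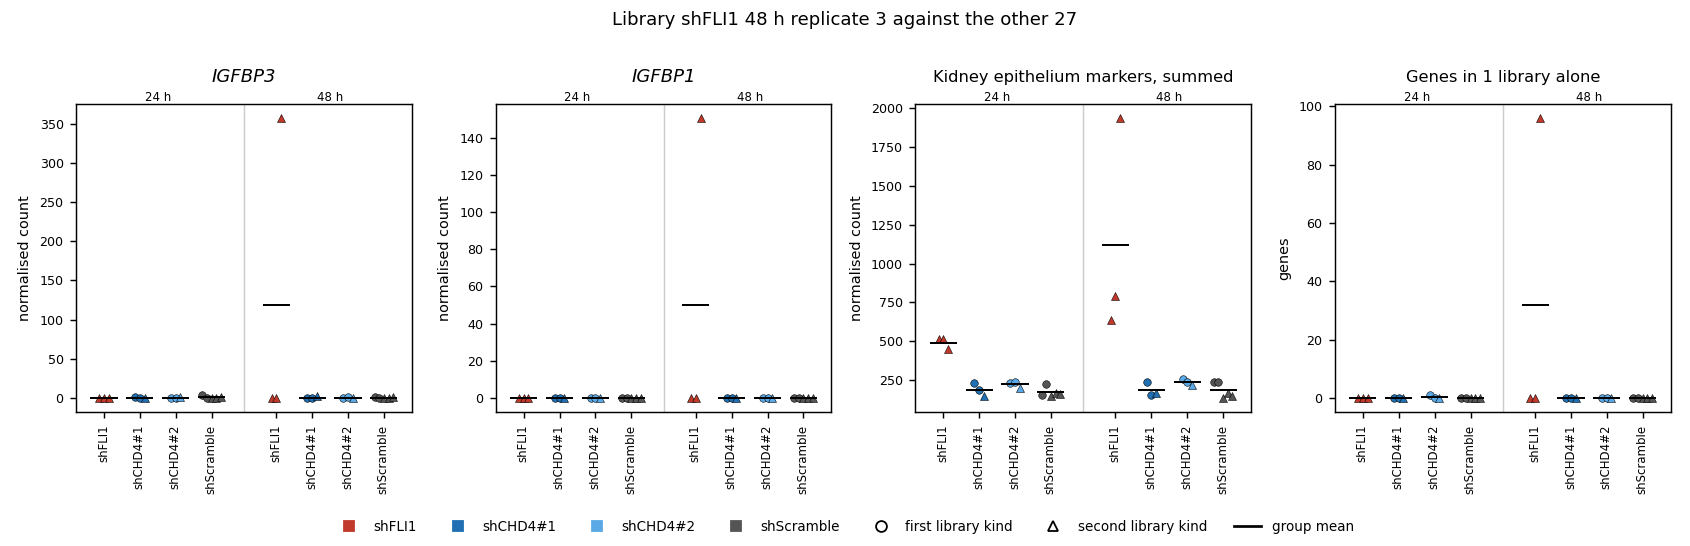
Normalised counts of IGFBP3, of IGFBP1 and of the summed kidney epithelium markers, and the number of genes found in 1 library alone (y axes), in each of 28 libraries by hairpin and time (points; circles first library kind, triangles second; lines, group means). Replicate 3 of shFLI1 at 48 h is at 357, 151, 1937 and 96, far above the other 27 libraries in each panel.

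Promoter sequence is shown for 2 binding proteins that were higher and the ligand that was lower with shFLI1, because the fusion's FLI1 part binds the core GGAA. These are the 250 bases before a RefSeq start of the gene in GRCh38.p14, for a gene with several starts the one nearest its annotated 5′ end, read 5′ to 3′ on the gene's strand, with GGAA or its complement TTCC in capitals. The IGFBP5 window is chr2:216695550-216695799 on the minus strand, the IGFBP2 window chr2:216632578-216632827 on the plus strand, and the IGF1 window chr12:102481748-102481997 on the minus strand.
IGFBP5: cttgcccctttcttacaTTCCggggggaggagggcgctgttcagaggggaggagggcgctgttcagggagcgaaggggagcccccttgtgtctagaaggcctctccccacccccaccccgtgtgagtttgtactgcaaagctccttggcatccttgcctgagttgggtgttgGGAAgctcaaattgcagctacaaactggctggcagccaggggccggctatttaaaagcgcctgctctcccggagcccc
IGFBP2: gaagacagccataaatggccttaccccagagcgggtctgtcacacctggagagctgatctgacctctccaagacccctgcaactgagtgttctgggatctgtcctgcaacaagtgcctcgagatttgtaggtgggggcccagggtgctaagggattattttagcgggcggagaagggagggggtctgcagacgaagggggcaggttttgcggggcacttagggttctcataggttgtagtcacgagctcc
IGF1: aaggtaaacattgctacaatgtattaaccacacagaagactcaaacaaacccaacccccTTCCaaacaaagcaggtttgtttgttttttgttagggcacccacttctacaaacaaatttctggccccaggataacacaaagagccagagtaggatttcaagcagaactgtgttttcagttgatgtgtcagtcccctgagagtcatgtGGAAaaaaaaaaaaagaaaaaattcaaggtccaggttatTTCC
The IGFBP5 window holds 2 such cores, the IGFBP2 window 0 and the IGF1 window 3. RefSeq gives other starts for both last genes, and which start these cells use was not measured: the windows 592 and 26739 bases further on in IGFBP2 hold 3 and 1 cores, and the other IGF1 window holds 2. Of the other members with a start in the table, IGF1R and IGFBP3 have 1, IGF2R has 2, IGFBP4 has 3 and IGFBP6 has 7. IGF2 and IGFBP7 have no entry there. Of the 35116 starts given by RefSeq, 92.7% hold at least 1 core within 250 bases, the median is 3, and 4.1% hold 7 or more. The doubled core GGAAGGAA or TTCCTTCC is in 3.06% of the windows and in none of these members. A match is a description of letters and not of binding.

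Groups were compared with limma on log2(normalised count + 1), with Benjamini-Hochberg adjustment over the 21025 genes tested, and a call is an adjusted p under 0.05. With shFLI1 at 24 h, 4 of the 10 genes were higher and 1 was lower than with shScramble, beside 24.2% and 22.5% of all genes tested (46.7% in either direction). With shFLI1 at 48 h, 7 were higher and 1 lower, beside 32.2% and 31.7% (63.9% in either direction). Without replicate 3, 6 of the 9 genes then tested were higher and 1 lower, beside 29.3% and 29.7%. The median log2 fold change of the 10 genes with shFLI1 was 0.56 at 24 h and 1.62 at 48 h, and it was 0.00 and 0.01 over all genes tested. IGFBP3 is in both medians although it passed the filter through 1 library.

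CHD4 silencing called fewer of these genes than shFLI1 did, as it did of all genes tested. At 24 h, 1 was higher and 0 lower with shCHD4#1, beside 5.21% and 6.14% of all genes (11.3% together), and 1 higher and 0 lower with shCHD4#2, beside 4.05% and 7.01% (11.1%). At 48 h, 1 was higher and 1 lower with shCHD4#1, beside 12.9% and 15.5% (28.4%), and 3 were higher and 1 lower with shCHD4#2, beside 17.5% and 20.3% (37.9%). IGF2, which passed the filter through the 48 h CHD4 libraries, is among the higher genes in each of these counts. All knockdowns of a time share the same 5 shScramble libraries. In bulk RNA, fewer cells with a transcript and less of it per cell cannot be told apart.

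**Figure D2:**
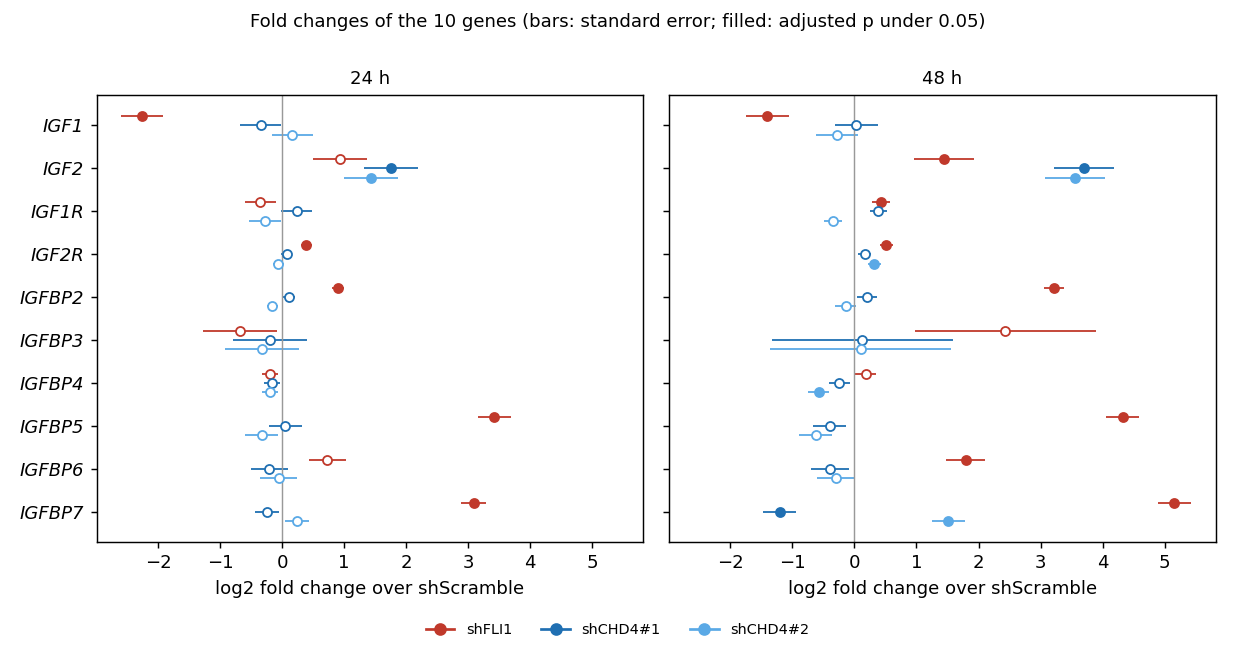
Log2 fold change over shScramble (x axis) of each of the 10 genes (rows) with shFLI1, shCHD4#1 and shCHD4#2, at 24 h (left) and 48 h (right); bars are limma's standard error and filled points have an adjusted p under 0.05. With shFLI1 at 48 h IGFBP7, IGFBP5 and IGFBP2 lie at 5.15, 4.32 and 3.21 and IGF1 at -1.40, while IGF2 lies at 3.70 and 3.55 with the CHD4 hairpins.

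IGF1 fell with shFLI1 at both times. IGF1 (ENSG00000017427) spans chromosome 12, 102395874 to 102481744, on the minus strand (GRCh38, as for all genes here), and the genes HELLPAR and LINC02456 overlap it on the other strand. At 24 h it had 101, 82.6 and 59.7 normalised counts with shFLI1, against 624.5, 501, 324, 196 and 408 with shScramble. All 3 shFLI1 libraries lay below all 5 controls, at a log2 fold change of -2.25 (SE 0.33, limma adjusted p = 7.29e-05). The 48 h libraries had 180, 156 and 132 with shFLI1, against 812, 439, 362, 214 and 422 with shScramble. Nor did the groups overlap then (log2 -1.40, SE 0.34, limma adjusted p = 0.00236; -1.29 without replicate 3, adjusted p = 0.0136). Among 24 h shScramble libraries IGF1 averaged 562.6 in the first kind and 309.4 in the second. At 48 h the first-kind controls had 812 and 439, and those of the second kind averaged 332.6. The shFLI1 libraries, all of the second kind, averaged 81.2 at 24 h and 155.9 at 48 h. The IGF1 fold changes over controls of that kind alone are therefore smaller.

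IGF1 moved less with the CHD4 hairpins. At 24 h it averaged 315 ± 123 with shCHD4#1 and 438 ± 112 with shCHD4#2, against 411 ± 164 with shScramble (SD, n = 3, 3 and 5), and at 48 h 433 ± 137 and 355 ± 144, against 449.7 ± 221. None of these differences passed the test. The replicate number was also fitted as a block over all 4 groups of a time, the shFLI1 libraries among them. Only shScramble has numbers 4 and 5, so those controls add nothing to the differences in that fit. With the block IGF1 was called lower with shCHD4#1 at 24 h (log2 -0.63, limma adjusted p = 0.00662) and with shCHD4#2 at 48 h (log2 -0.58, adjusted p = 0.0175). Against the mean of both CHD4 hairpins, IGF1 with shFLI1 was lower by a log2 of -2.16 at 24 h (SE 0.32, limma adjusted p = 6.52e-05) and -1.28 at 48 h (SE 0.33, adjusted p = 0.00348). Most CHD4 libraries were of the first kind, where IGF1 averaged higher in each CHD4 group, so the kinds are not balanced in these differences.

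IGF2 rose with both CHD4 hairpins at both times, on few reads. IGF2 (ENSG00000167244) spans chromosome 11, 2129112 to 2149603, on the minus strand. The gene record AC132217.2 at the same place had the same number of reads in 28 of 28 libraries, 598 in all, and INS-IGF2, AC132217.1 and the antisense IGF2-AS overlap IGF2 too, so which record the reads came from is uncertain. At 24 h IGF2 had 14, 27 and 21 reads with shCHD4#1 and 10, 21 and 16 with shCHD4#2, against 7, 2, 7, 5 and 4 with shScramble. In normalised counts every CHD4 library was above every control, at 8.05 to 23.3 against 1.62 to 7.09. Per unit of depth the shCHD4#1 libraries held 3.80 times the reads (exact 95% interval 2.35 to 6.31, counting error only) and the shCHD4#2 libraries 2.98 times (1.80 to 5.06). The log2 fold changes, which the added 1 makes smaller at such levels, were 1.76 (SE 0.43, limma adjusted p = 0.0166) and 1.43 (SE 0.43, adjusted p = 0.0464).

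Both 24 h calls of IGF2 lie near the threshold, while the fold change stayed positive. Over the 14 fits that each leave out 1 library, the log2 fold change was 1.48 to 2.03 with shCHD4#1, with 12 calls, and 1.15 to 1.81 with shCHD4#2, with 4 calls. The shCHD4#1 call ended without shCHD4#1 replicate 2 (limma adjusted p = 0.103) or 3 (adjusted p = 0.0642). The shCHD4#2 call ended in 10 of the 14 fits, some of which leave out a library of another hairpin, with adjusted p up to 0.232, and with the replicate block (log2 1.49, adjusted p = 0.082). It also ended with no filter on the mean (limma adjusted p = 0.0816).

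At 48 h IGF2 stood further from the controls. It had 35.7, 78.9 and 72.1 normalised counts with shCHD4#1 and 24.7, 77.7 and 76.9 with shCHD4#2, against 8.93, 1.03, 3.05, 3.73 and 4.36 with shScramble. Replicate 1 was the lowest library of both CHD4 hairpins, and it was still above the highest control. The ratio of reads was 14.0 with shCHD4#1 (197 reads against 22, interval 8.97 to 22.8) and 13.7 with shCHD4#2 (185 against 22, 8.78 to 22.4). IGF2 passed the mean filter through the 48 h CHD4 libraries, and its calls there stood with no filter. The log2 fold changes were 3.70 (SE 0.49, limma adjusted p = 9.88e-05) and 3.55 (SE 0.49, adjusted p = 7.52e-05). Within the second library kind, which holds 1 library of each CHD4 hairpin at 48 h, they were 3.96 and 4.05. Within the first, which holds 2 of each, they were 3.59 and 3.32 (limma adjusted p = 0.0526 and 0.0426). The mean fold change of both hairpins was larger at 48 h than at 24 h by a log2 of 2.03 (SE 0.56), a comparison added after the values were seen, which did not pass (limma adjusted p = 0.19).

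IGF2 was nearer to the controls with shFLI1. It had 11, 13 and 5 reads with shFLI1 at 24 h, against 7, 2, 7, 5 and 4 with shScramble, and the groups overlapped (log2 0.93, SE 0.43, limma adjusted p = 0.0912). The 48 h shFLI1 libraries had 10.6, 13.8 and 10.4 normalised counts, against 8.93 in the highest shScramble library (log2 1.44, SE 0.49, limma adjusted p = 0.0181; 1.51 without replicate 3, adjusted p = 0.036). That call ended without shFLI1 replicate 2 (limma adjusted p = 0.065) and with quantile normalisation (log2 1.18, adjusted p = 0.0527). Against the mean of both CHD4 hairpins at 48 h, IGF2 with shFLI1 was lower by a log2 of -2.18 (SE 0.47, limma adjusted p = 0.000934).

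H19, the imprinted non-coding RNA that lies 127641 bases from IGF2, is described for its position. H19 at 48 h had 379, 453 and 722 normalised counts with shCHD4#1, against 178, 160, 120, 164 and 100.3 with shScramble, with no overlap (log2 1.81, SE 0.26, limma adjusted p = 0.000187). With shCHD4#2 it had 261, 165 and 291, so that 1 library lay within the control range (log2 0.72, SE 0.26, limma adjusted p = 0.0428; 0.0866 with the replicate block). H19 was higher with shCHD4#1 than with shCHD4#2 at 48 h by a log2 of 1.097 (SE 0.29, limma adjusted p = 0.00888), where IGF2 differed by 0.15 (SE 0.55, adjusted p = 0.856). At 24 h H19 had 267, 350.02 and 447 with shCHD4#1, against 136 to 193 with shScramble, with no overlap (log2 1.07, SE 0.25, limma adjusted p = 0.0117). With shCHD4#2 at 24 h it had 185, 224 and 395 and was not called (log2 0.62, SE 0.25, limma adjusted p = 0.129; 0.70 with the replicate block, adjusted p = 0.0089). With shFLI1 at 24 h H19 had 279, 309 and 458, against 145, 136, 193, 192 and 166 with shScramble (log2 1.04, SE 0.25, limma adjusted p = 0.00294). H19 at 48 h was at log2 0.68 with shFLI1 (SE 0.26, limma adjusted p = 0.0341), a call that ended without replicate 3 (0.46, adjusted p = 0.179).

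**Figure D3:**
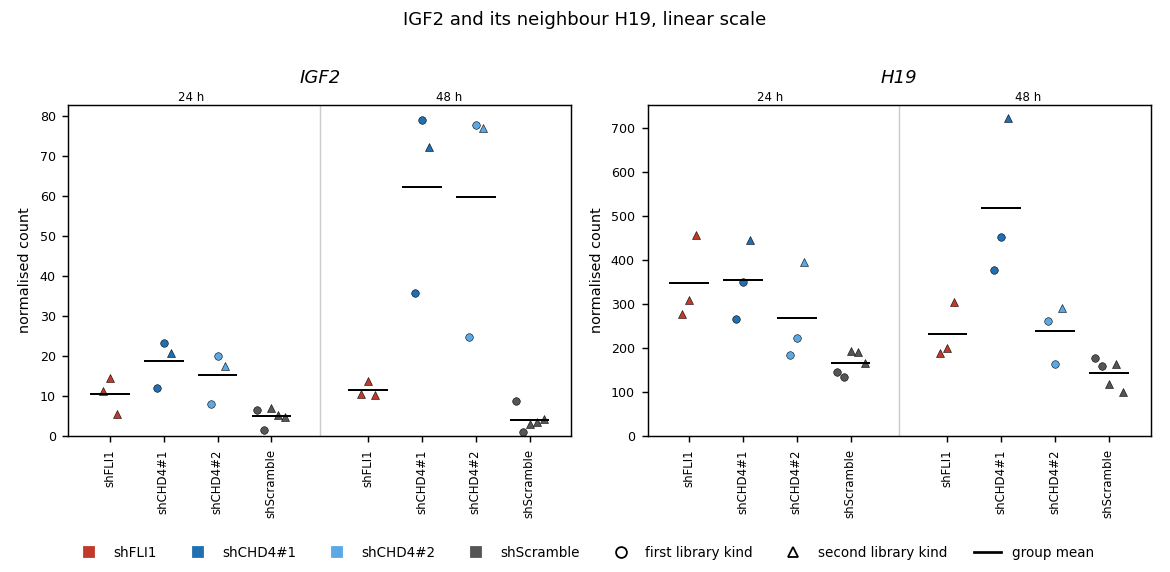
Normalised counts of IGF2 (left) and H19 (right) on a linear scale in each library by hairpin and time (points; circles first library kind, triangles second; lines, group means). The 6 CHD4 libraries at 48 h hold 24.7 to 78.9 IGF2 counts, above every other library, while H19 is highest with shCHD4#1 at 48 h, at 379 to 722.

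IGF1R levels differed between the library kinds. IGF1R (ENSG00000140443) spans chromosome 15, 98648539 to 98964530, on the plus strand. In 24 h shScramble libraries it had 8998 and 10125 normalised counts in the first kind, against 5485, 5847 and 4734 in the second. With shFLI1 at 24 h, all of the second kind, it had 4976, 5576 and 5343 and was not called (log2 -0.35, SE 0.25, limma adjusted p = 0.275; -0.01 within the second kind, adjusted p = 0.931). Levels at 48 h were 9104, 8442 and 9521 with shFLI1, against 7879, 8149, 5667, 5659 and 6464 with shScramble, with no overlap (log2 0.43, SE 0.14, limma adjusted p = 0.0166; 0.61 within the second kind, adjusted p = 0.00011). The call ended without replicate 3 (log2 0.39, limma adjusted p = 0.0606) and with centring on the median gene (log2 0.32, adjusted p = 0.0765).

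The CHD4 hairpins differed in IGF1R at 48 h. It had 9847, 8983 and 7562 normalised counts with shCHD4#1, against 5964, 5723 and 4314 with shCHD4#2, with no overlap (log2 0.73, SE 0.16, limma adjusted p = 0.00292). At 48 h 2 of the 10 genes differed between the hairpins, IGF1R higher and IGFBP7 lower with shCHD4#1, beside 19.2% and 18.6% of all genes (37.9% together). At 24 h 0 of the 10 differed by limma, beside 5.62% and 4% of all genes (9.62% together), and IGF1R was at a log2 of 0.51 (SE 0.28, limma adjusted p = 0.293; 0.034 with the replicate block). The block also called IGF1 between the hairpins at 24 h, at a log2 of -0.51 (limma adjusted p = 0.0163; 0.452 without it). Against shScramble at 48 h, IGF1R was at a log2 of 0.39 with shCHD4#1 (SE 0.14, limma adjusted p = 0.0566) and -0.34 with shCHD4#2 (SE 0.14, adjusted p = 0.0769). With the replicate block the shCHD4#2 values were called, at -0.51 at 24 h (limma adjusted p = 0.0377) and -0.44 at 48 h (adjusted p = 0.018).

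IGF2R, the scavenging receptor, rose by less than 1.5 times with shFLI1. IGF2R (ENSG00000197081) spans chromosome 6, 159969099 to 160113507, on the plus strand. At 24 h it had 11429.9, 10457 and 12226 normalised counts with shFLI1, against 9350.0, 9545, 8369, 8069 and 7972 with shScramble, with no overlap (log2 0.39, SE 0.09, limma adjusted p = 0.00323). Levels at 48 h were 13457, 12621 and 12986 with shFLI1, against 9429, 10217, 8841, 8582 and 8546 with shScramble (log2 0.52, SE 0.10, limma adjusted p = 0.000382; 0.52 without replicate 3, adjusted p = 0.00194). With shCHD4#2 at 48 h it had 10049, 13853 and 10596, of which 1 lay within the control range (log2 0.32, SE 0.10, limma adjusted p = 0.0196). That call ended with the replicate block (log2 0.26, limma adjusted p = 0.0675) and without shCHD4#2 replicate 2, the library at 13853 (adjusted p = 0.147). It also ended with only the groups compared (limma adjusted p = 0.0604) and within the first library kind (log2 0.27, adjusted p = 0.272).

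**Figure D4:**
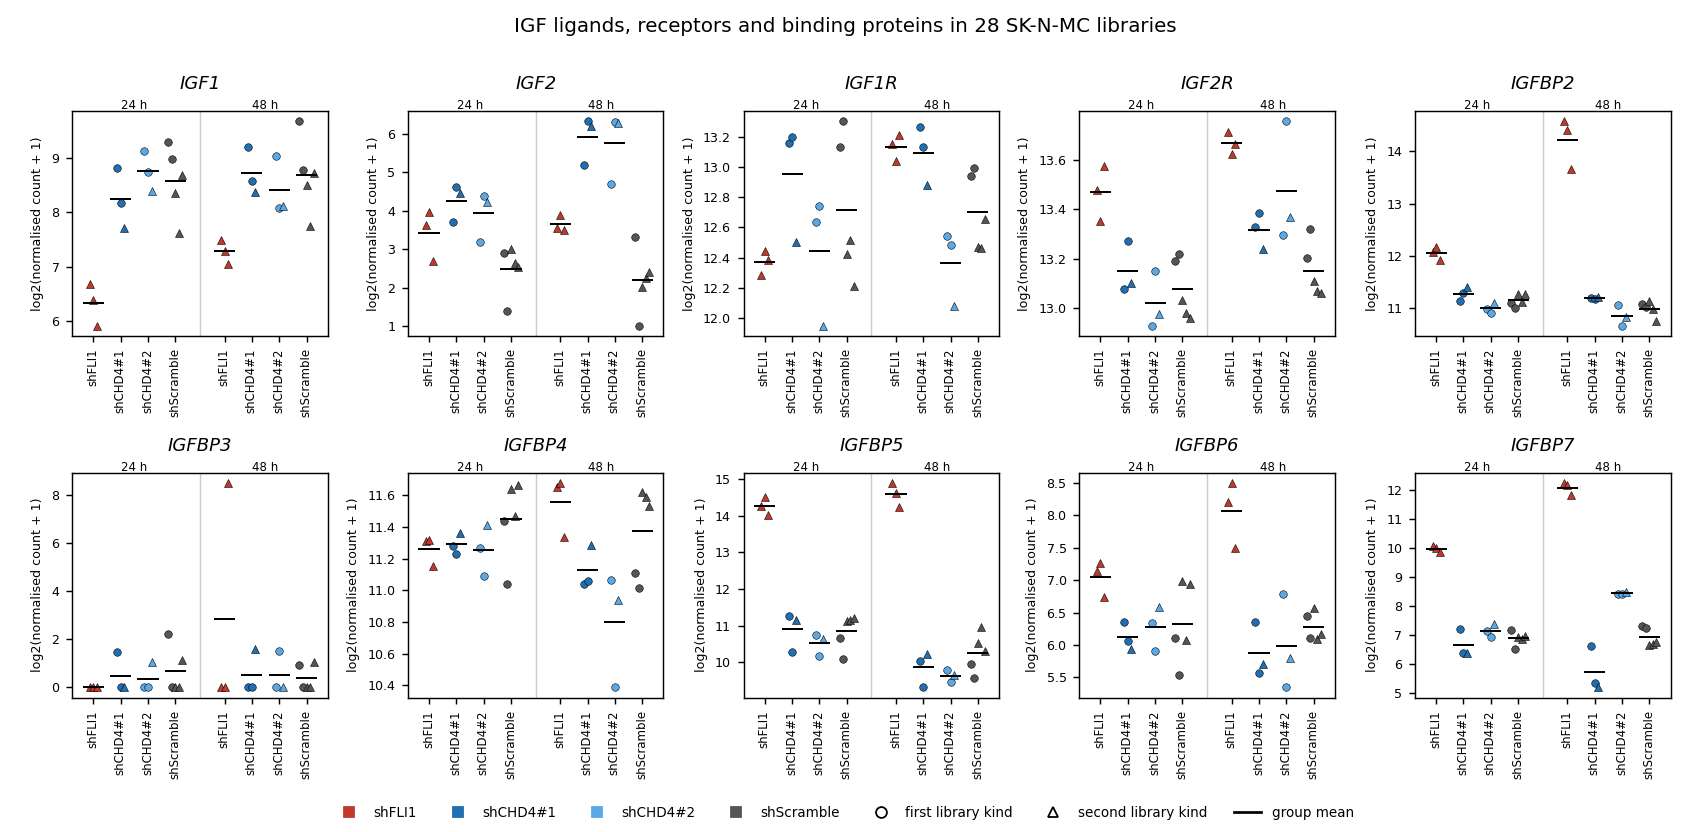
Log2(normalised count + 1) of each of the 10 genes in 28 libraries by hairpin and time (points; circles first library kind, triangles second; lines, group means; each panel has its own y range). With shFLI1, IGFBP5 and IGFBP7 lie above all other groups at both times and IGF1 lies below them, and IGFBP3 is above 3 in 1 library alone.

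IGFBP7 had the largest fold change of the 10 genes at 48 h, and its level followed the hairpin and the time. IGFBP7 (ENSG00000163453) spans chromosome 4, 57030773 to 57110385, on the minus strand, and POLR2B and IGFBP7-AS1 overlap it on the other strand. At 24 h it had 1074, 1029 and 929 normalised counts with shFLI1, against 143, 90.8, 121, 116 and 125 with shScramble (8.49-fold, log2 3.09, SE 0.20, limma adjusted p = 2.72e-08). By 48 h there were 4825, 4572 and 3637 with shFLI1, against 156, 148, 101, 102 and 106 with shScramble (35.6-fold, log2 5.15, SE 0.27, limma adjusted p = 1.16e-09; 5.28 without replicate 3, adjusted p = 1.98e-08). The groups did not overlap at either time.

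The CHD4 hairpins moved IGFBP7 in opposite directions at 48 h. It had 96.3, 39.9 and 35.6 normalised counts with shCHD4#1 and 338, 341 and 356 with shCHD4#2, against 156, 148, 101, 102 and 106 with shScramble. All 3 shCHD4#1 libraries lay below the controls (log2 -1.20, SE 0.27, limma adjusted p = 0.00384) and all 3 shCHD4#2 libraries above them (log2 1.51, SE 0.27, adjusted p = 0.000527). The hairpins differed by a log2 of -2.72, shCHD4#1 over shCHD4#2 (SE 0.30, limma adjusted p = 2.09e-05). The difference was -3.29 within the second library kind, which holds 1 library of each hairpin at 48 h. It was -2.43 within the first, which holds 2 of each (limma adjusted p = 0.0173). Within the first kind alone neither hairpin was called against shScramble (log2 -1.28 and 1.15, limma adjusted p = 0.0941 and 0.0871). At 24 h the values were -0.24 with shCHD4#1 (SE 0.20, limma adjusted p = 0.487) and 0.25 with shCHD4#2 (SE 0.20, adjusted p = 0.503). In order of mean level the groups ran from shFLI1 at 48 h (4345 ± 626) to shFLI1 at 24 h (1010.5 ± 74.5) and shCHD4#2 at 48 h (345 ± 9.49), with no overlap between these or with shCHD4#2 at 24 h, the next one down (141 ± 22.7; SD, n = 3 each). Below that, each group overlapped its neighbour.

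IGFBP5, the most conserved binding protein of the family and one that also binds matrix, rose with shFLI1 at 24 h already. IGFBP5 (ENSG00000115461) spans chromosome 2, 216672105 to 216695525, on the minus strand, 7668 bases from IGFBP2 on the plus strand. At 24 h it had 19878, 23590.4 and 16561 normalised counts with shFLI1, against 1626, 1099.6, 2254, 2261 and 2374 with shScramble (10.7-fold, log2 3.42, SE 0.26, limma adjusted p = 1.69e-07). By 48 h there were 30452, 25030.1 and 19541 with shFLI1, against 996, 763, 1470.2, 1980.4 and 1275 with shScramble (19.98-fold, log2 4.32, SE 0.27, limma adjusted p = 6.06e-09; 4.49 without replicate 3, adjusted p = 6.08e-08). The lowest shFLI1 library was many times the highest control at both times. Among shScramble libraries IGFBP5 averaged 1363 in the first kind and 2296 in the second at 24 h, and 879 and 1575 at 48 h. All shFLI1 libraries were of the second kind, so the fold changes over controls of that kind alone are smaller. Both calls stood with a kind term. IGFBP5 was not called with the CHD4 hairpins at either time, and at 48 h it was at a log2 of -0.40 with shCHD4#1 (SE 0.27, limma adjusted p = 0.292) and -0.63 with shCHD4#2 (SE 0.27, adjusted p = 0.0803).

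IGFBP2, the neighbour of IGFBP5, rose with shFLI1 at both times, with the larger fold change at 48 h. IGFBP2 (ENSG00000115457) spans chromosome 2, 216632828 to 216664436. The 24 h libraries had 4315, 4636 and 3897 normalised counts with shFLI1, against 2206, 2069.6, 2473, 2213 and 2487 with shScramble (1.87-fold, log2 0.90, SE 0.09, limma adjusted p = 3.01e-06). At 48 h it had 24338, 21588 and 12975 with shFLI1, against 2171, 2080.2, 2261, 2018 and 1729 with shScramble (9.28-fold, log2 3.21, SE 0.16, limma adjusted p = 9.64e-10). Replicate 3 was the lowest of the 3, and without it the log2 fold change was 3.49 (limma adjusted p = 6.17e-10). IGFBP2 with the CHD4 hairpins stayed between 1632 and 2700.02 normalised counts, against 1729 to 2487 with shScramble, and no call was made.

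The fold change with shFLI1 differed between the times for 2 of the 10 genes, both larger at 48 h, beside 7.22% and 9.44% of all genes with a fold change higher and lower at 48 h (16.7% together). For IGFBP2 the difference in log2 fold change was 2.31 (SE 0.19, limma adjusted p = 1.58e-08) and for IGFBP7 it was 2.07 (SE 0.34, adjusted p = 0.00011). Without replicate 3 of shFLI1 at 48 h both were still called, at 2.58 and 2.19 (limma adjusted p = 5.53e-11 and 0.000183). For IGFBP5 it was 0.90 (SE 0.40, limma adjusted p = 0.133), for IGFBP6 1.06 (SE 0.45, adjusted p = 0.105), for IGF1R 0.78 (SE 0.31, adjusted p = 0.0845) and for IGF1 0.85 (SE 0.51, adjusted p = 0.284). In shScramble cultures 0 of the 10 genes differed between 48 h and 24 h, and limma called 0 of all genes, with 485 at an unadjusted p under 0.05. There edgeR also called 0 and DESeq2 called 2. For the mean fold change of both CHD4 hairpins limma called 0 of all genes between the times, with 1819 at an unadjusted p under 0.05, where edgeR called 0 and DESeq2 110.

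IGFBP6, which prefers IGF2 over IGF1, rose with shFLI1 at 48 h. IGFBP6 (ENSG00000167779) spans chromosome 12, 53097436 to 53102345, on the plus strand. Levels at 24 h were 141, 153 and 106 normalised counts with shFLI1, against 67.6, 45.4, 126, 66.4 and 122 with shScramble, and the groups overlapped (log2 0.73, SE 0.30, limma adjusted p = 0.0591). At 48 h it had 295, 359.9 and 179.6 with shFLI1, against 86.6, 68.0, 93.6, 67.2 and 70.9 with shScramble, with no overlap (3.46-fold, log2 1.79, SE 0.31, limma adjusted p = 0.000138; 2.08 without replicate 3, adjusted p = 0.000114). Neither CHD4 hairpin called IGFBP6 at either time.

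IGFBP4 is an inhibitory binding protein that the protease PAPPA cuts, and shFLI1 did not call it at either time. Its mean control level was the highest of IGFBP2 to IGFBP7, in normalised counts and per kb of the union of annotated exons. IGFBP4 (ENSG00000141753) spans chromosome 17, 40443461 to 40457731, on the plus strand. At 48 h it had 3223, 3272 and 2586 normalised counts with shFLI1, against 2211, 2066, 3149.99, 3079.8 and 2957 with shScramble (log2 0.18, SE 0.17, limma adjusted p = 0.364). With shCHD4#2 at 48 h it had 2138, 1339 and 1966, of which 1 was within the control range (log2 -0.58, SE 0.17, limma adjusted p = 0.0164). That call ended with the replicate block (log2 -0.45, limma adjusted p = 0.0702) and without shCHD4#2 replicate 2 (adjusted p = 0.128). It also ended within the first library kind (log2 -0.34, limma adjusted p = 0.302). The 48 h shScramble libraries averaged 2138 in the first kind and 3062 in the second. At 24 h IGFBP4 with shFLI1 was at a log2 of -0.19 (SE 0.13, limma adjusted p = 0.24), and it was called lower within the second library kind (-0.33, adjusted p = 0.0115).

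IGFBP3, the main IGF carrier of blood plasma, was at or near 0 in all libraries but 1. IGFBP3 (ENSG00000146674) spans chromosome 7, 45912245 to 45921874, on the minus strand. With shFLI1 at 48 h it had 0, 0 and 344 reads, against 1, 0, 0, 0 and 1 with shScramble. With shFLI1 at 24 h it had 0 reads in 3 libraries, against 5 over the 5 shScramble libraries. The library with 344 reads is the one that stood apart, and IGFBP1, which lies 18576 bases from IGFBP3, had 145 reads there and 0 in each of the other 27. Replicates 1 and 2 of shFLI1 at 48 h had 0 reads of both genes. Limma did not call IGFBP3 (log2 2.43, SE 1.45, adjusted p = 0.156), edgeR on the recovered reads called it (adjusted p = 0.00115), and DESeq2 gave it no adjusted p. With the CHD4 hairpins it had at most 2 reads in any library.

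Scaled by exon length, the binding proteins changed their order with shFLI1. That length is the union of all annotated exons of a gene, such as 4767 bases for IGFBP2 and 2200 for IGFBP4. Which transcripts these cells use was not measured, so levels compared between genes, and the shares below, depend on the length taken. The summed level of IGFBP2 to IGFBP7 per kb of exon was 5744 ± 730 normalised counts with shFLI1 at 24 h, against 2190 ± 354 with shScramble, and 11860.5 ± 2563 with shFLI1 at 48 h, against 1977 ± 282 with shScramble (SD, n = 3 and 5). IGFBP4 made up 19.6% of that sum with shFLI1 at 24 h, against 58.7% with shScramble, and 11.8% with shFLI1 at 48 h, against 61.6%. IGFBP5 made up 53.9% with shFLI1 at 24 h, against 13.4% with shScramble, and 32.8% at 48 h, against 9.96%. IGFBP2 made up 15.7% with shFLI1 at 24 h, against 22.2% with shScramble, and IGFBP7 9.17%, against 2.84%. IGFBP2 reached 34.2% with shFLI1 at 48 h, against 22.2% with shScramble, and IGFBP7 19.2%, against 3.35%. In these length-scaled levels at 48 h, IGF1R averaged 647 per kb and IGF1 19.2 per kb with shFLI1, against 485 and 55.4 with shScramble.

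**Figure D5:**
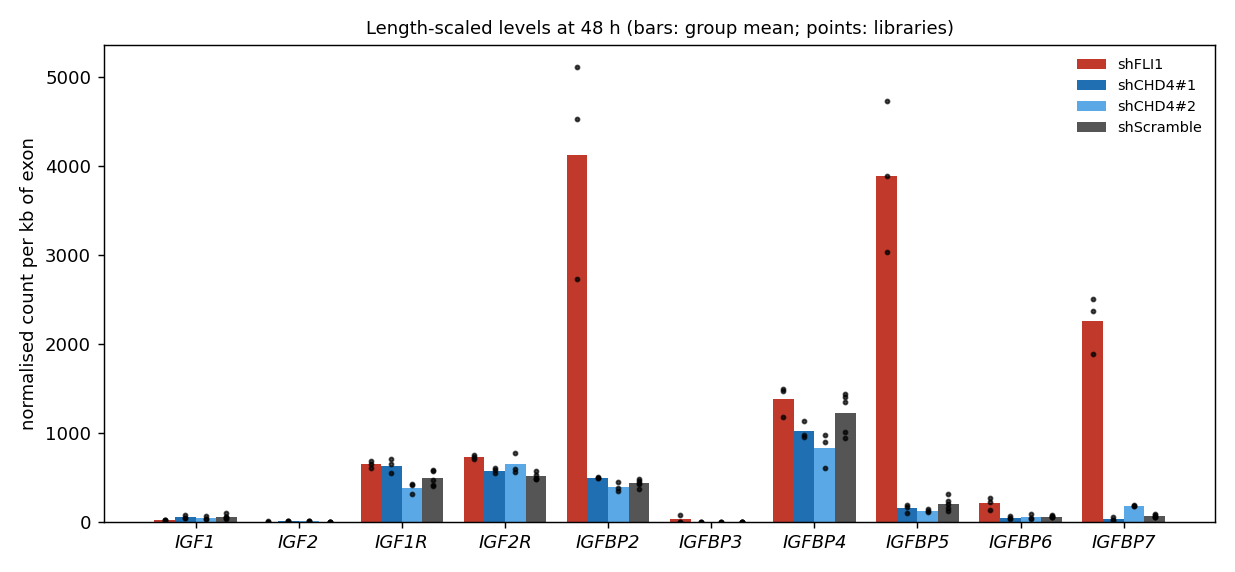
Length-scaled levels at 48 h, in normalised counts per kb of exon (y axis), of the 10 genes for each hairpin (bars, group means, from 0; points, libraries). With shFLI1, IGFBP2, IGFBP5 and IGFBP7 stand at 4119, 3882 and 2251 per kb, above IGFBP4 at 1376, which is the highest bar with shScramble at 1224.

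Set against the mean of both CHD4 hairpins, shFLI1 called 5 of the 10 genes higher and 1 lower at 24 h, beside 28% and 24.8% of all genes (52.9% together). The higher genes were IGF2R, IGFBP2, IGFBP5, IGFBP6 and IGFBP7, and the lower one was IGF1. At 48 h 7 were higher and 2 lower, beside 32.9% and 32.8% (65.7%). IGFBP4 was among the higher ones there, at a log2 of 0.59 (SE 0.17, limma adjusted p = 0.0059), and IGF1 and IGF2 were the lower ones. The 24 h call of IGFBP6 and the 48 h calls of IGF1R and IGF2R in this comparison each ended when 1 shFLI1 library was left out (replicates 1 or 2 for IGFBP6, 1 or 3 for the receptors). All shFLI1 libraries are of the second kind and most CHD4 libraries of the first. The IGFBP6 call also ended with a kind term (log2 0.55, limma adjusted p = 0.112) and with quantile normalisation (adjusted p = 0.0796). Within the second kind IGFBP6 was at 0.79. Both receptor calls ended with median centring (limma adjusted p = 0.106 for IGF1R and 0.242 for IGF2R). The largest of these differences were 5.00 for IGFBP7 (SE 0.26, limma adjusted p = 1.06e-09) and 4.83 for IGFBP5 (SE 0.26, adjusted p = 1.63e-09), both at 48 h. Without replicate 3 they were 5.12 and 5.00, and IGF1, IGF2, IGFBP2, IGFBP4 and IGFBP6 were still called (limma adjusted p at most 0.0197).

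Of 11 other extracellular regulators of IGF activity 5 were tested. With shFLI1 3 were higher and 2 lower at 24 h, and the same counts were called at 48 h, with and without replicate 3, beside 24.2% and 22.5% of all genes at 24 h and 32.2% and 31.7% at 48 h. IGFBPL1, a binding protein-like secreted protein, had 98 reads over the shFLI1 libraries at 24 h, against 18 over the shScramble libraries (log2 3.11). At 48 h it had 612, against 17 (log2 6.09). It reached the mean of 10 through the 48 h shFLI1 libraries, its mean over the other 25 being 6.76, so its counts are a description, and it is among the 3 higher genes of the list. PAPPA, the protease that cuts IGFBP4, was lower at both times, at a log2 of -1.63 (SE 0.18, limma adjusted p = 4.95e-06) and -1.47 (SE 0.19, adjusted p = 1.05e-05). STC1 and STC2, stanniocalcins that inhibit PAPPA, differed in direction: STC1 was at 3.46 at 24 h and 2.16 at 48 h, and STC2 at -1.60 and -1.80 (limma adjusted p at most 9.69e-05). With the CHD4 hairpins 1 gene of the 5, STC1 with shCHD4#1, was called at 24 h (log2 1.18, limma adjusted p = 0.0399), beside 5.21% of all genes higher with shCHD4#1 and 4.05% with shCHD4#2. At 48 h STC1 was called higher with shCHD4#1 (1.92, adjusted p = 0.00105) and ADAM9, a membrane protease named after its value was seen, with shCHD4#2 (0.72, adjusted p = 0.0468), beside 12.9% and 17.5% of all genes.

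Of 12 receptors and adaptors 11 were tested, and with shFLI1 2 were higher and 4 lower at 24 h and 4 higher and 4 lower at 48 h, beside 24.2% and 22.5% of all genes at 24 h and 32.2% and 31.7% at 48 h. Without replicate 3 there were 4 higher and 3 lower at 48 h, each gene named here among them. IRS1 and IRS2, which dock to IGF1R and pass its signal to PI3K, were lower at both times: IRS1 at a log2 of -2.30 (SE 0.15, limma adjusted p = 3.54e-08) and -1.33 (SE 0.13, adjusted p = 7.31e-07), and IRS2 at -1.52 (SE 0.10, adjusted p = 3.99e-08) and -1.61 (SE 0.14, adjusted p = 1.98e-07). GRB10, an adaptor that restrains the receptor, was at -0.55 and -1.03, and INSR, the insulin receptor, at 0.29 and 0.84 (limma adjusted p at most 0.0302). With the CHD4 hairpins 1 of the 11 was higher and 2 lower with shCHD4#1 at 24 h, 3 and 3 at 48 h, 0 and 1 with shCHD4#2 at 24 h, and 1 and 4 at 48 h. The shares of all genes higher and lower were 5.21% and 6.14% with shCHD4#1 at 24 h, 12.9% and 15.5% at 48 h, 4.05% and 7.01% with shCHD4#2 at 24 h, and 17.5% and 20.3% at 48 h. IRS1 was lower with shCHD4#1 at both times (-1.01 and -1.46, limma adjusted p = 0.000799 and 6.34e-06), and with shCHD4#2 it was at -0.35 and -0.32 (adjusted p = 0.157 and 0.0744). IRS2 was higher with shCHD4#1 at both times (0.50 and 0.58, limma adjusted p = 0.00515 and 0.00761) and lower with shCHD4#2 at 48 h (-0.39, adjusted p = 0.0416).

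All 22 genes of the PI3K and AKT branch were tested, and with shFLI1 8 were higher and 2 lower at 24 h and 13 higher and 5 lower at 48 h, beside 24.2% and 22.5% of all genes at 24 h and 32.2% and 31.7% at 48 h. Without replicate 3 there were 13 higher and 4 lower at 48 h, with the 48 h calls named here among them. The median log2 fold change of the branch was 0.15 and 0.44, beside 0.00 and 0.01 over all genes. FOXO1 and FOXO3, transcription factors that AKT keeps out of the nucleus, were higher, at 1.53 and 0.69 at 24 h and at 2.59 and 1.54 at 48 h (limma adjusted p at most 0.00128). GSK3B, a kinase that AKT inhibits, was at -0.01 at 24 h and 0.72 at 48 h (limma adjusted p = 0.957 and 4.95e-05). With the CHD4 hairpins 0 of the 22 were higher and 1 lower with shCHD4#1 at 24 h, 3 and 2 at 48 h, 1 and 1 with shCHD4#2 at 24 h, and 4 and 5 at 48 h, where all genes had 5.21% and 6.14%, 12.9% and 15.5%, 4.05% and 7.01%, and 17.5% and 20.3% in the same order. FOXO3 was lower with both at 48 h (-0.34 and -0.50, limma adjusted p = 0.0394 and 0.00346).

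Of 8 genes of IGF2 RNA and its imprinted locus, H19 among them, 6 were tested, and with shFLI1 3 were higher and 1 lower at 24 h and 5 higher and 1 lower at 48 h, beside 24.2% and 22.5% of all genes at 24 h and 32.2% and 31.7% at 48 h. Without replicate 3 there were 3 higher and 1 lower at 48 h; the call of H19 ended and the others named here did not. IGF2BP1, which binds IGF2 messenger RNA, was lower at both times (log2 -0.50 and -0.95, limma adjusted p = 9.08e-05 and 1.7e-07), whereas its relative IGF2BP3 was higher (0.28 and 0.66, adjusted p = 0.0413 and 6.75e-06). PLAG1 and HMGA2, factors known to raise IGF2 transcription, were at 0.64 and 0.57 with shFLI1 at 48 h (limma adjusted p = 8.22e-05 and 5.11e-05). With shCHD4#1 at 48 h, when IGF2 was at 3.70, both were lower, PLAG1 at -0.32 and HMGA2 at -0.33 (limma adjusted p = 0.0342 and 0.0116). With shCHD4#2 at 48 h they were at -0.14 and -0.03 (limma adjusted p = 0.33 and 0.797). Of the 6, 1 was higher and 0 lower with shCHD4#1 at 24 h, 1 and 2 at 48 h, 0 and 0 with shCHD4#2 at 24 h, and 1 and 0 at 48 h, beside 5.21% and 6.14%, 12.9% and 15.5%, 4.05% and 7.01%, and 17.5% and 20.3% of all genes.

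The genes whose log2 levels ran most like each member over the 28 libraries, which share their groups and library kinds, are named by Pearson's r as a description. For IGFBP7 they were PDE5A, ARHGAP29 and FERMT2 (0.976, 0.975 and 0.973), for IGFBP5 SV2A, KANK1 and LHX9 (0.965, 0.965 and 0.965), and for IGFBP2 PTX3, DHRS3 and PLAT (0.975, 0.972 and 0.972). For IGF1 they were RYR2, ZNRF3 and CDK14 (0.939, 0.934 and 0.932), and for IGF1R EXOC4, WDFY3 and RPS6KC1 (0.93, 0.917 and 0.916). For IGF2, apart from the record with the same reads, they were ZNF778 and CCDC144NL-AS1 (0.899 and 0.887). For IGF2R they were LMNA, AC008073.3 and ZNF529-AS1 (0.899, 0.89 and 0.89), for IGFBP4 CMBL, OAS1 and METTL9 (0.894, 0.869 and 0.863), and for IGFBP6 ANXA11, CLMP and WIPI1 (0.921, 0.917 and 0.913). For IGFBP3 they were AC111000.4, KLK4 and ACSM2A (0.929, 0.921 and 0.918), with 27 of the libraries at or near 0.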

How the data were processed

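RNA-seq of 28 SK-N-MC libraries was used. Per the submitters' processing notes, the authors used HISAT2 2.1.0, featureCounts 1.6.0, DESeq2 1.34.0 and the build GRCh38. For the strand setting no statement was found in the sources used here, and the annotation release is not spelled out there. The deposited values are a normalised signal, reads divided by 1 size factor per library. Whole reads were recovered for at least 99.9504% of values per library (tolerance 0.02). The authors' deposited tables of log2 fold changes and p-values were read but no value of theirs is reported, and the table named for shFLI1 at 24 h was not used, because its log2 values correlated across genes at 0.198 with shFLI1 minus shScramble at 24 h and at 0.853 with shScramble at 48 h minus 24 h.

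Log2(value + 1) of the 21025 genes with a mean of at least 10 was fitted with limma 3.58.1 (R 4.3.3, trended, two-sided), each time with its 4 groups and comparisons between times with all 8, with Benjamini-Hochberg adjustment and a threshold of 0.05. The count models edgeR 4.0.16 and DESeq2 1.42.0 on recovered reads were alternatives; for shFLI1 against shScramble at 48 h edgeR called 13526 genes and limma 13429. Labels call the replicates biological. The p-values set a difference between groups against the spread between these libraries. In the main fits that spread is pooled over all groups fitted and over both library kinds. Same-numbered CHD4 and shScramble libraries deviated together (correlation of residuals 0.129 to 0.615). In these groups numbers 1 and 2 are of the first library kind and number 3 of the second. Pairing by number therefore cannot be told apart from a shared library kind, and it was not tested. Intervals are exact at 95% and cover counting error only. The fitting code was tested on simulated data. Levels per kb used the union of a gene's exons in GENCODE 29, not known to be the authors' release. Promoters are from RefSeq. All members are described; of each other list up to 4 genes with the smallest adjusted p with shFLI1 at 48 h are named, and for each member the 3 genes with the highest correlation. The members and lists were chosen with earlier results of these data known. One gene that this rule names is not reported here.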

Additional observations from a re-analysis of the deposited data

Results flagged for a closer look

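The fold change with shFLI1 differed between 48 h and 24 h for 2 of the 10 genes by a test of the difference itself in limma. For IGFBP2 the log2 fold change was larger at 48 h by 2.31 (SE 0.19, limma adjusted p = 1.58e-08). For IGFBP7 it was larger at 48 h by 2.07 (SE 0.34, limma adjusted p = 0.00011). All 3 libraries with shFLI1 at 48 h lay above all 3 at 24 h for both genes. Of 20 sets of 5 shScramble values looked at for a library far from the others, those of the 10 genes at each time, 0 had one. Groups of 3 libraries, shFLI1 at 48 h among them, were not looked at in this way.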

How the results depend on the processing

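Of 130 member values 40 were called, and 28 of these were called under every alternative run. The alternatives were pseudocounts of 0.5 and 5, no filter, quantile normalisation, median centring, edgeR, DESeq2 and only the groups compared. They also covered a library kind term, each library kind alone, the replicate block, and leaving out each library. In the second kind each CHD4 group holds 1 library, so calls there rest on the spread within the shFLI1 and shScramble groups. The first kind holds 2 libraries of each CHD4 group. It holds no shFLI1 library, so it could not be fitted alone for comparisons with shFLI1. The 48 h calls of IGF2 and IGFBP7 with shCHD4#1, and of IGFBP7 with shCHD4#2, ended in that fit alone. No called value turned sign, and 106 uncalled settings did. The cause of the changes was not tested. For shCHD4#1 against shScramble at 24 h the 1 call became 0 with quantile normalisation and in either library kind alone, 2 with the replicate block, and 0 to 1 without 1 library. For shCHD4#2 at 24 h the 1 call became 0 with no filter, quantile normalisation, only the groups compared and the second kind, 2 with a kind term, and 0 to 1 without 1 library. Between the hairpins at 24 h the 0 calls became 2 with a kind term, 2 with the replicate block, 1 in the first kind, and 0 to 1 without 1 library. At 48 h the 2 calls with shCHD4#1 became 0, and the 4 with shCHD4#2 became 2, in the first kind, and the 4 were 2 to 5 without 1 library. The 2 calls for the shFLI1 fold change at 48 h against 24 h became 4 with DESeq2 or a kind term and 5 in the second kind or with the replicate block, and the mean CHD4 fold change between the times had 0 to 1 without 1 library. Same-numbered shFLI1 and shScramble libraries did not deviate together (correlations -0.18 to 0.026). The replicate block called IGF1R (-0.58) and IGFBP6 (0.85) with shFLI1 at 24 h.

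Over all genes, calls with shCHD4#1 at 24 h numbered 2385, 1499 with only the groups compared, 4531 with a kind term, 895 in the second kind and 907 without its replicate 2. With shCHD4#2 at 24 h they numbered 2325, 1267, 4684, 668 and 884 in the same order (without shCHD4#2 replicate 2). Between the hairpins at 24 h they numbered 2022, 1245, 4455, 219 and 874 (without shCHD4#1 replicate 2), and 3482 with the replicate block. At 48 h the first kind alone gave 1439 with shCHD4#1 (5965 in all libraries), 3213 with shCHD4#2 (7964) and 3237 between them (7963), and leaving out replicate 2 of the hairpin gave 3659 with shCHD4#1 and 5296 with shCHD4#2. The shFLI1 fold change between the times had 3503, 5592 with a kind term and 5303 in the second kind. Median centring moved the median of all genes by -0.12 for shFLI1 against shScramble at 48 h and by -0.13 against the CHD4 mean. IGF2 held few reads, which limits its values, and IGFBP3 was at or near 0 reads in all libraries but 1.

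Uncalled values near 0 turned sign as follows, in log2. For mean fold change of both CHD4 hairpins at 48 h against 24 h, IGF1 was at 0.087 in the second kind and -0.27 to 0.21 without 1 library, and IGF1R was at -0.10 to 0.17 without 1 library. There IGFBP2 was at -0.048 in the first kind and -0.013 to 0.093 without 1 library, and IGFBP3 was at -0.022 to 0.61 without 1 library. There IGFBP7 was at -0.13 in the first kind and -0.070 to 0.29 without 1 library. For shCHD4#1 against shScramble, 48 h, IGF1 was at -0.032 with edgeR, -0.048 with DESeq2, -0.15 with a kind term, -0.27 with the replicate block, -0.34 in the first kind and -0.21 to 0.28 without 1 library, and IGFBP3 was at -0.40 to 0.39 without 1 library. For shCHD4#2 against shScramble, 24 h, IGF1 was at -0.042 with a kind term, -0.12 with the replicate block, -0.20 in the first kind and -0.073 to 0.35 without 1 library, and IGF2R was at 0.065 with quantile normalisation. There IGFBP3 was at 0.69 in the second kind and -0.67 to 0.072 without 1 library, and IGFBP5 was at 0.080 in the first kind. There IGFBP6 was at 0.069 with a kind term, 0.068 with the replicate block, 0.30 in the first kind and -0.25 to 0.13 without 1 library. For shScramble 48 h against 24 h, IGF1 was at -0.14 to 0.34 without 1 library, and IGF1R was at 0.039 with quantile normalisation, 0.15 in the second kind and -0.14 to 0.14 without 1 library. There IGF2 was at 0.020 in the first kind, and IGFBP3 was at -0.45 to 0.11 without 1 library. There IGFBP4 was at -0.18 to 0.013 without 1 library, and IGFBP6 was at 0.46 in the first kind and -0.25 to 0.11 without 1 library. There IGFBP7 was at -0.23 in the second kind and -0.066 to 0.10 without 1 library. For shCHD4#1 against shScramble, 24 h, IGF1R was at -0.038 in the first kind, and IGF2R was at -0.032 in the first kind. There IGFBP3 was at -0.67 to 0.20 without 1 library, and IGFBP4 was at 0.018 in the first kind. There IGFBP5 was at -0.14 to 0.36 without 1 library, and IGFBP6 was at 0.39 in the first kind. For shFLI1 against the mean of both CHD4 hairpins, 24 h, IGF1R was at 0.18 with a kind term and 0.14 in the second kind, and IGFBP4 was at 0.030 with quantile normalisation and -0.054 to 0.040 without 1 library. For shCHD4#1 against shCHD4#2, 24 h, IGF2 was at -0.049 to 0.60 without 1 library, and IGFBP3 was at -1.07 in the second kind and -0.36 to 0.48 without 1 library. There IGFBP4 was at -0.048 in the second kind and -0.048 to 0.11 without 1 library, and IGFBP6 was at 0.084 in the first kind. For shCHD4#1 against shCHD4#2, 48 h, IGF2 was at -0.090 in the second kind and -0.39 to 0.50 without 1 library, and IGFBP3 was at -0.074 with quantile normalisation, -0.026 with edgeR and -0.50 to 0.52 without 1 library. There IGFBP6 was at -0.41 to 0.30 without 1 library. For shCHD4#2 against shScramble, 48 h, IGFBP3 was at -0.35 in the second kind and -0.40 to 0.35 without 1 library, and IGFBP6 was at -0.70 to 0.016 without 1 library. For shFLI1 against shScramble, 48 h, IGFBP4 was at -0.024 in the second kind.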
